A study of Homo sapiens with 6 samples.

Results

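The genes described here are the genes, nearly all of them long noncoding, named as hosts of small RNAs: 32 hosts of small nucleolar RNAs (snoRNAs) and 84 hosts of microRNAs, 116 of the 67060 human genes in the count table. Members were taken by symbol after Ensembl identifiers had been matched to GENCODE release 44. The snoRNA hosts are the genes named SNHG with a number together with *GAS5*, *DANCR*, *EPB41L4A-AS1* and *ZFAS1*, and the microRNA hosts are the genes named MIR, an identifier and HG. Genes entered by name and not by a measured value, but the set itself was chosen with earlier results of these data known.

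The libraries came from SH-SY5Y, a human neuroblastoma cell line that the labels call a neuronal progenitor. Control cells received the adenovirus Ad CMV GFP, and the other cells received Ad CMV 3xFlag-*Esrrg*, which carries the mouse coding sequence of the nuclear receptor ERRγ with a 3xFlag tag behind the CMV promoter. RNA was taken after 24 h, and total RNA was sequenced after removal of ribosomal RNA. Each group has 3 libraries, and the labels number the controls 1, 3 and 4 and the libraries with the receptor 2, 3 and 4. All cells were grown in DMEM with serum, both groups carried an adenovirus, of which the one with the receptor was made in human embryonic kidney 293 cells, and neither group was left uninfected. The labels do not say that the replicates came from separate cultures, so p-values measure only the spread between these libraries, which may be technical. The comparison asks which transcripts differ when ERRγ is overexpressed, here for genes whose introns hold snoRNAs or microRNAs.

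snoRNA hosts are transcribed mainly to release snoRNAs from their introns. Box C/D and box H/ACA snoRNAs form particles that guide the methylation and pseudouridylation of ribosomal RNA, and the spliced exons of many hosts begin with a run of pyrimidines, carry no long reading frame and are removed by nonsense-mediated decay, so that their level reflects decay as well as transcription. microRNA hosts are primary transcripts that *DROSHA* and *DGCR8* cut in the nucleus and *DICER1* cuts again in the cytoplasm, and a microRNA then recognises its targets mainly through its seed. In neuroblastoma and in neurons, let-7, miR-9, miR-124, miR-125b and miR-137 are known for roles in differentiation.

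The mature sequences below belong to the microRNA hosts that carry the results, with the seed (bases 2 to 8) in capitals. They were read from RefSeq on GRCh38.p14, where mature microRNAs were listed for 75 of the 116 hosts. This is not a full count, because *MIR378D2HG* and *MIR2052HG* hold an annotated microRNA gene and are not among the 75. The first 6 sequences share the let-7 seed. Of their hosts, *MIR100HG* was called lower, *MIR4458HG* higher and the others were not called, and neither call held in every fit described below.
let-7a-5p: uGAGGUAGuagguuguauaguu
let-7b-5p: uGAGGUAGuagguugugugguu
let-7c-5p: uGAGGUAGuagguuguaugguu
let-7i-5p: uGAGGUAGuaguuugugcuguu
miR-4458: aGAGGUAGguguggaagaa
miR-4500: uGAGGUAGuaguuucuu
The next 3 are the partners of let-7 in the clusters inside *MIR100HG* and *MIR99AHG*.
miR-100-5p: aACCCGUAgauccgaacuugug
miR-99a-5p: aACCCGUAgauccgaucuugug
miR-125b-5p: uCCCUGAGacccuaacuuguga
The last 7 are shown because their host, or the microRNA gene inside it, was called higher or lower.
miR-181a-5p: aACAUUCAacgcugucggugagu
miR-181b-5p: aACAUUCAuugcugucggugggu
miR-9-5p: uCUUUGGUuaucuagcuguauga
miR-137-3p: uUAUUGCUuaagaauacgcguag
miR-31-5p: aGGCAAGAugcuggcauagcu
miR-503-5p: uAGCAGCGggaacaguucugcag
miR-4280: gAGUGUAGuucugagcagagc
In *MIR100HG*, miR-125b-5p lies at chr11:122099809-122099830, let-7a-5p at chr11:122146568-122146589 and miR-100-5p at chr11:122152275-122152296, all on the minus strand. In *MIR181A2HG*, miR-181a-5p lies at chr9:124692480-124692502 and miR-181b-5p at chr9:124693725-124693747 on the plus strand. miR-137-3p lies at chr1:98046091-98046113 on the minus strand in *MIR137HG*, and miR-9-5p at chr15:89368032-89368054 on the plus strand in *MIR9-3HG*. The libraries were made from long RNA, so none of the values below measures a mature microRNA.

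Between 24969759 and 29700979 reads were counted on genes in the Ad CMV GFP libraries and between 26513620 and 40859666 in the Ad CMV 3xFlag-*Esrrg* libraries. The libraries differed in the reads that fell on no feature. These made up 51.3% to 52.2% of the reads in Ad CMV GFP. In Ad CMV 3xFlag-*Esrrg* they made up 46.6% in replicate 2, 31.6% in replicate 3 and 29.5% in replicate 4. Replicate 2 thus stood apart from replicates 3 and 4, and the share could not be told apart from the group. Reads that fitted more than 1 gene made up 4.55% to 4.87% in Ad CMV GFP and 5.69%, 9.84% and 9.79% in replicates 2, 3 and 4 with the receptor. Reads without a unique alignment made up 7.16% to 7.41%, and 9.33%, 12.7% and 13.0%. The part of these 2 shares in the results was not tested. *ESRRG*, which also collects reads of the viral mouse sequence where it resembles the human gene, had 83.6, 90.4 and 86.9 normalized counts per 1000000 (*CPM*) with Ad CMV GFP and 569.6, 772 and 778 *CPM* with Ad CMV 3xFlag-*Esrrg*. Of 10 markers of noradrenergic neuroblastoma cells, 8 were measurable, with *HAND2* at 367 ± 18.0 *CPM* and *GATA3* at 123 ± 5.66 *CPM* (SD, n = 3) in Ad CMV GFP, while *TH* and *CHGA* were listed at 0 in every library. *PHOX2A* was called higher, the lower calls included *DBH* and *DDC*, and the summed level of the list was 649 to 708 *CPM* in Ad CMV GFP and 499.5 to 659 *CPM* in Ad CMV 3xFlag-*Esrrg*. A 0 in this table can be a failed count, because *FBL*, the methyltransferase of every box C/D particle, was also listed at 0. The 5 markers of glia and Schwann cells summed to between 7.64 and 8.23 *CPM* in Ad CMV GFP and between 6.03 and 7.07 *CPM* in Ad CMV 3xFlag-*Esrrg*. The 4 embryonic kidney markers summed to between 0.390 and 0.665 *CPM* in Ad CMV GFP and between 0.112 and 0.178 *CPM* in Ad CMV 3xFlag-*Esrrg*, with *PAX2* at 0. *SIX2* was called lower, with 11, 15 and 19 counts in Ad CMV GFP and 3, 4 and 5 in Ad CMV 3xFlag-*Esrrg*. It passed the filter on low counts only through Ad CMV GFP, so this call adds no support. The 8 markers of the mesenchymal neuroblastoma state were all measurable and summed to 3871 to 3946 and 4564 to 4708 *CPM*, and 1 of them, *YAP1*, was called lower. The part of these markers in the results below was not tested.

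A mean of 10 counts over the 6 libraries was reached by 69 of the 116 hosts, 28 of the 32 snoRNA hosts and 41 of the 84 microRNA hosts. The snoRNA hosts under that mean were *SNHG18*, *SNHG27*, *SNHG28* and *SNHG32*, at a mean of 2.50 counts or fewer. Just above the line stood *MIR497HG* (10.3 counts), *MIR302CHG* (11.0) and *MIR2052HG* (12.0), and just below it *MIR219A2HG* (9.67), *MIR3142HG* (8.50) and *MIR583HG* (8). Of the 84 microRNA hosts, 14 were listed at 0 in all libraries. *MIR22HG*, *SNHG32* and *MIR210HG* have at least 80% of their 31-base words on alternate contigs of GRCh38 as well, and they were listed at 0, at most at 3 and at most at 9 counts. Of the other 113 hosts, 13 were listed at 0 and 29 at no more than 3 counts in any library, so such low values were common without copies too. The part of the copies in these values was not tested. The test across all genes took 73 hosts, 28 of snoRNAs and 45 of microRNAs, because its filter looks at the counts within 3 libraries and not at the mean of all 6. The other 43 hosts were too low to test and enter no count of calls.

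Among the tested snoRNA hosts, 11 were called higher, 1 lower and 16 neither with Ad CMV 3xFlag-*Esrrg*. Among the microRNA hosts, 5 were called higher, 8 lower and 32 neither. A gene was called at an adjusted p below 0.05 with a change of at least 1.5-fold in edgeR's quasi-likelihood test over 24500 genes, of which 17.3% were called higher and 16.8% lower. The share was 39.3% higher and 3.57% lower for the 28 snoRNA hosts and 11.1% higher and 17.8% lower for the 45 microRNA hosts, whose lower share was near that of all tested genes. For the 41 microRNA hosts with a mean of at least 10 counts it was 12.2% higher and 14.6% lower. Of 5697 tested lncRNA genes, the gene type of 115 of the 116 hosts, 6.46% were called higher and 23.7% lower. The median log2 fold change was 0.56 for snoRNA hosts and -0.22 for microRNA hosts, against -0.32 for lncRNA genes, 0.12 for protein-coding genes and -0.10 for all tested genes. These counts and medians describe the hosts that could be tested, and the difference between the classes has no test of its own. RNA per cell and the mixture of cells cannot be told apart in bulk libraries.

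**Figure D1:**
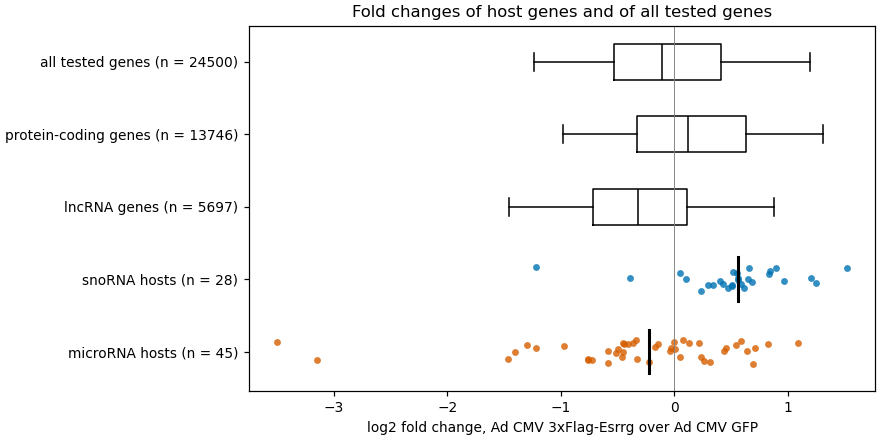
log2 fold changes (x axis, Ad CMV 3xFlag-*Esrrg* over Ad CMV GFP) of all tested genes, protein-coding genes and lncRNA genes as boxes (median, quartiles, whiskers at the 5th and 95th percentiles) and of each tested host as a point, with the median of each host class as a bar. The snoRNA hosts centre at 0.56 and the microRNA hosts at -0.22.

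The 3 libraries of the Ad CMV 3xFlag-*Esrrg* group did not carry this pattern to the same extent. The median snoRNA host lay 0.30 above the Ad CMV GFP mean on the log2 scale in replicate 2, 0.67 in replicate 3 and 0.64 in replicate 4. The median microRNA host lay at -0.04, -0.30 and -0.43 in the same libraries, and the median lncRNA gene at -0.10, -0.39 and -0.43. Replicate 2 was thus nearest to Ad CMV GFP in each class, as it was in its reads on no feature. With replicate 2 left out, all 11 calls of higher snoRNA hosts were kept and 9 more were added (20 in all, against 22.9% of 25472 tested genes), and 12 microRNA hosts were called lower (20.2% of all). With the share of reads on no feature as a covariate, 6 snoRNA hosts were called higher, where 7.24% of all genes were called higher and 5.4% lower, and the median snoRNA host was at 0.17. *SNHG17*, *DANCR*, *SNHG15* and *SNHG9* were in both sets of higher calls, and *SNHG4* and *SNHG26* were added. In that fit the microRNA hosts had 6 higher and 4 lower calls and a median of 0.020, and *MIR503HG*, *MIR4280HG*, *MIR137HG* and *MIR181A2HG* were the calls shared with the fit without the covariate. The share nearly follows the group, so the group value in that fit rests largely on replicate 2 set against the controls. A call kept with the covariate is therefore not separate support. The part of this share in the results below was not tested.

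**Figure D2:**
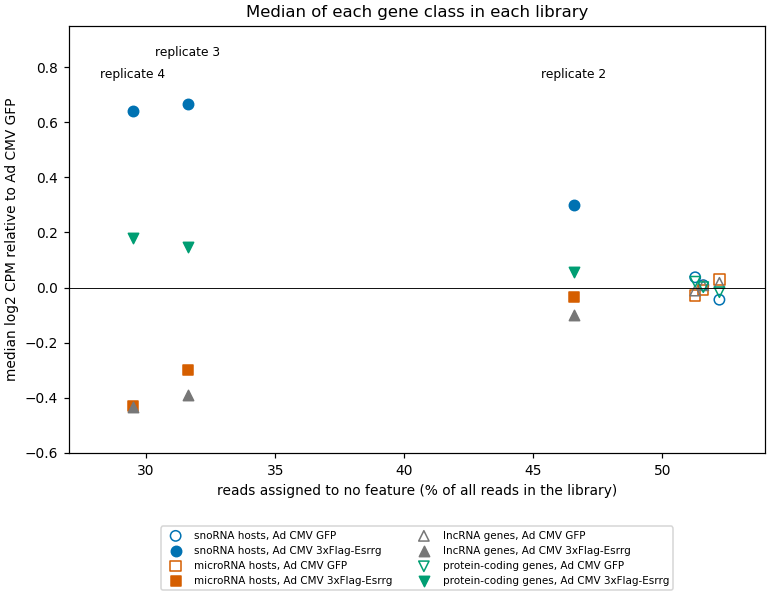
Median log2 normalized *CPM* of each class relative to the mean of the Ad CMV GFP libraries (y axis) against the reads on no feature as a percentage of all reads in the library (x axis), with open symbols for Ad CMV GFP and filled symbols for Ad CMV 3xFlag-*Esrrg*. Replicate 2 lies at 46.6% and between the Ad CMV GFP libraries and replicates 3 and 4 in every class.

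The scale also bore on the counts. With library size as the only scaling, the median over all tested genes was -0.42 in place of -0.10, and 2200 genes were called higher and 7566 lower in place of 4234 and 4117. On that scale 4 snoRNA hosts were called higher and 2 lower, with *SNHG22* as the second, and 1 microRNA host was called higher and 18 lower. Relative to the median of all genes, the snoRNA hosts stayed above it on both scales, with a median of 0.23 under library size alone.

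*SNHG17*, *DANCR*, *SNHG15* and *SNHG9* rose both with and without the covariate. *SNHG17*, which holds box H/ACA snoRNAs of the *SNORA71* family, had 36.1, 37.5 and 38.1 *CPM* with Ad CMV GFP and 71.9, 73.4 and 73.4 *CPM* with Ad CMV 3xFlag-*Esrrg*. The groups were far apart, and here replicate 2 did not differ from the other two. The log2 fold change was 0.97 ± 0.09 (SE, adjusted p = 2.9e-05), and the gene lies at chr20:38419638-38435409 on the minus strand.

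*DANCR*, host of *SNORA26* and known as a brake on differentiation in several cell types, had 22.5, 29.7 and 25.4 *CPM* with Ad CMV GFP and 47.9, 65.9 and 64.8 *CPM* with Ad CMV 3xFlag-*Esrrg*. The lowest library with the receptor was above the highest control. Its log2 fold change was 1.20 ± 0.14 (adjusted p = 1.3e-04), and it lies at chr4:52712325-52723623 on the plus strand. *SNHG15*, host of *SNORA9* at chr7:44983019-44986961, had 13.3, 14.1 and 13.7 *CPM* with Ad CMV GFP and 26.8, 36.1 and 34.3 *CPM* with Ad CMV 3xFlag-*Esrrg*. It rose by 1.24 ± 0.12 on the log2 scale (adjusted p = 5.3e-05). *DANCR*, *SNHG15* and *SNHG9* were called higher under each of the 18 alternative settings tried. *SNHG9*, host of *SNORA78*, had a mean of 41.5 counts, between 0.532 and 0.970 *CPM* with Ad CMV GFP and between 1.81 and 2.17 *CPM* with Ad CMV 3xFlag-*Esrrg*, and it had the largest log2 fold change among the tested snoRNA hosts (1.52 ± 0.27).

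*SNHG3* and *SNHG29* were higher in all 3 libraries, but by less in replicate 2. *SNHG3*, at chr1:28505980-28510892, holds *SNORA73A* and *SNORA73B*, box H/ACA RNAs once named U17 that act in the cutting of precursor ribosomal RNA. It had 52.9, 61.0 and 60.7 *CPM* with Ad CMV GFP and 90.5, 110 and 112 *CPM* with Ad CMV 3xFlag-*Esrrg*, and its log2 fold change was 0.84 ± 0.11 (adjusted p = 2.2e-04), and 0.53 ± 0.11 with the covariate, below the 1.5-fold limit. *SNHG29*, host of *SNORD49A*, *SNORD49B* and *SNORD65* at chr17:16438767-16480249, had 149, 163 and 167 *CPM* with Ad CMV GFP and 193, 346 and 350 *CPM* with Ad CMV 3xFlag-*Esrrg*. The groups did not overlap, yet replicate 2 was nearer to the controls than to replicates 3 and 4. The log2 fold change was 0.89 ± 0.19 (adjusted p = 0.0035), and 0.01 ± 0.11 once the reads on no feature entered as a covariate.

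*GAS5*, the host with the highest level per length, holds 10 box C/D snoRNAs in its introns and is known for accumulating when growth stops and translation falls. It had 150, 162 and 160 *CPM* with Ad CMV GFP and 206, 272.5 and 244 *CPM* with Ad CMV 3xFlag-*Esrrg*. All 3 libraries with the receptor were above all controls. The log2 fold change was 0.61 ± 0.12 (adjusted p = 0.0015), 0.82 ± 0.07 without replicate 2, and 0.30 with the covariate. It was below the 1.5-fold limit with the covariate, without Ad CMV 3xFlag-*Esrrg* replicate 3 (0.52) and without Ad CMV GFP replicate 1 (0.58). *GAS5* lies at chr1:173858559-173868882 on the minus strand.

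*SNHG5* and *SNHG16* were also called higher, and for both the covariate removed the call. *SNHG5*, host of *SNORD50A* and *SNORD50B* at chr6:85650491-85678932, had 121, 135 and 130 *CPM* with Ad CMV GFP and 141, 240 and 228 *CPM* with Ad CMV 3xFlag-*Esrrg*. Replicate 2 was just above the highest control. Its log2 fold change was 0.66 ± 0.17 (adjusted p = 0.0096), and -0.09 with the covariate. *SNHG16*, host of *SNORD1A*, *SNORD1B* and *SNORD1C* at chr17:76557727-76670985, had 90.0, 108 and 107 *CPM* with Ad CMV GFP and 119, 165 and 173 *CPM* with Ad CMV 3xFlag-*Esrrg*, a log2 fold change of 0.59 ± 0.14 (adjusted p = 0.0067). When replicate 3 or 4 with the receptor was left out, *SNHG5* (0.53 and 0.58) and *SNHG16* (0.53 and 0.50) were no longer called, nor was *SNHG16* without Ad CMV GFP replicate 1 (0.51). The 2 other calls were *SNHG19*, host of *SNORD60*, at 0.69 ± 0.15, and *SNHG30*, host of *SNORD7*, at 0.65 ± 0.20. Both lost the call with the covariate, and *SNHG30* also without Ad CMV GFP replicate 1 (0.50) and without Ad CMV 3xFlag-*Esrrg* replicate 4 (0.51).

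*SNHG14*, *SNHG8*, *ZFAS1* and *EPB41L4A-AS1* were not called. *SNHG14* is the long neuronal transcript of the imprinted Prader-Willi region, at chr15:24978583-25420336, and carries the *SNORD116* and *SNORD115* arrays. It had 538, 531 and 538 *CPM* with Ad CMV GFP and 707, 544 and 479 *CPM* with Ad CMV 3xFlag-*Esrrg*, and the groups overlapped. Its log2 fold change was 0.11 ± 0.14, and it took the opposite sign under library size alone. *SNHG8*, host of *SNORA24* at chr4:118278703-118285316, had 77.8, 81.1 and 76.3 *CPM* with Ad CMV GFP and 77.4, 116 and 118 *CPM* with Ad CMV 3xFlag-*Esrrg*. Replicate 2 lay within the controls, and the log2 fold change was 0.40 ± 0.15 (adjusted p = 0.042). Without replicate 2 *SNHG8* passed both limits, at 0.69 ± 0.07, and with the covariate it was at -0.20.

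*ZFAS1*, host of *SNORD12*, *SNORD12B* and *SNORD12C* at chr20:49278178-49299600, had 30.3, 30.8 and 29.6 *CPM* with Ad CMV GFP and 34.3, 36.9 and 35.7 *CPM* with Ad CMV 3xFlag-*Esrrg*. The groups did not overlap, and the log2 fold change of 0.24 ± 0.09 (adjusted p = 0.044) was below the 1.5-fold limit. *EPB41L4A-AS1*, host of *SNORA13* at chr5:112160526-112164818, had 10.6, 10.1 and 10.0 *CPM* with Ad CMV GFP and 12.2, 16.2 and 15.4 *CPM* with Ad CMV 3xFlag-*Esrrg*. Its groups did not overlap either, at 0.52 ± 0.13 (adjusted p = 0.0070), and without replicate 2 it was called higher (0.74 ± 0.10). In all, 20 of the 28 tested snoRNA hosts had every library with the receptor above every control, and 1 had every library below, where 27.8% and 30.3% of all tested genes did so. An adjusted p below 0.05 without the fold limit was reached by 21 higher and 1 lower snoRNA hosts, and by 24.3% of all tested genes for higher and 23.5% for lower. *SNHG1*, which holds 8 box C/D snoRNAs, was among them at 0.56 ± 0.10, just under the 1.5-fold limit.

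*SNHG31* was the only snoRNA host called lower. It had 2.34, 3.62 and 2.69 *CPM* with Ad CMV GFP and 1.5, 1.40 and 0.851 *CPM* with Ad CMV 3xFlag-*Esrrg*, with no overlap. Its log2 fold change was -1.22 ± 0.26 (adjusted p = 0.0034), and the call was lost with the covariate (-0.80 ± 0.40). *SNHG31* lies at chr2:214810181-214963575 on the plus strand and holds 1 RefSeq snoRNA gene, *SNORA70I*.

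**Figure D3:**
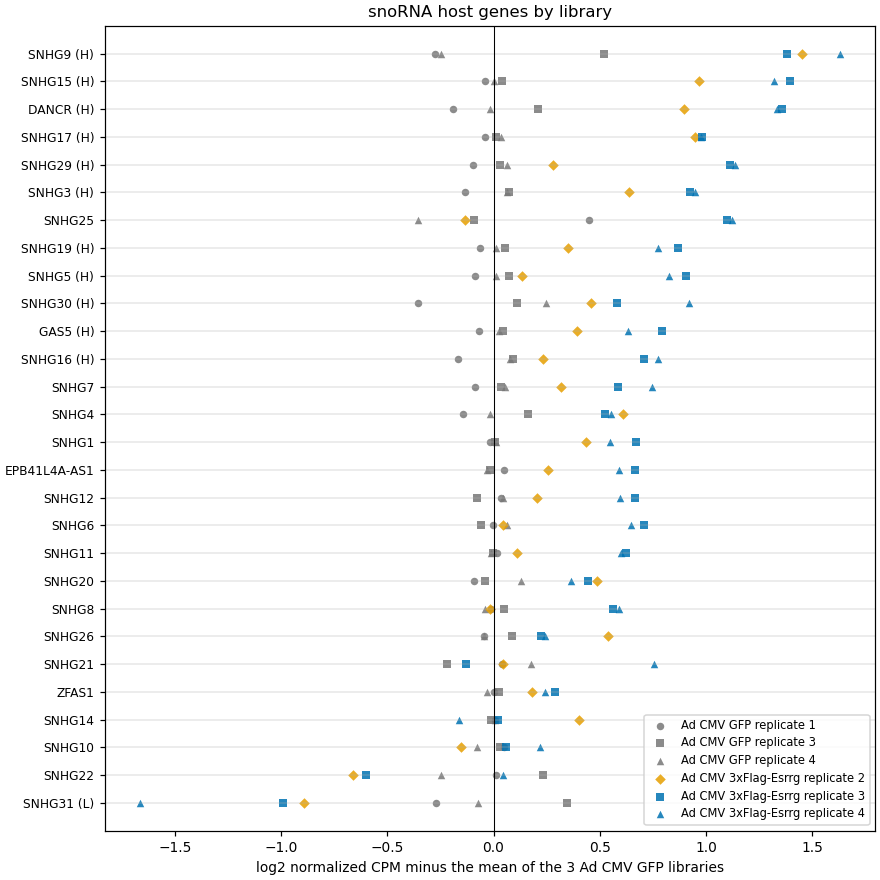
log2 normalized *CPM* of the 28 tested snoRNA hosts in each library (x axis, relative to the mean of the Ad CMV GFP libraries), with rows ordered by fold change, H and L marking hosts called higher and lower, grey for Ad CMV GFP, orange for Ad CMV 3xFlag-*Esrrg* replicate 2 and blue for replicates 3 and 4. Orange lies between grey and blue for most hosts and together with blue for *SNHG17*.

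Levels compared per length gave another order than levels per gene. Divided by the length of all annotated exons, *GAS5* stood highest among the snoRNA hosts at 40.4 *CPM* per kb, followed by *SNHG29* at 25.5, *SNHG16* at 22, *SNHG3* at 19.9 and *SNHG19* at 15.9. *SNHG14* had the most reads of any host but only 4.54 *CPM* per kb over its many exons. The microRNA hosts with the highest level per length were *MIR222HG* at 14.4, *MIRLET7BHG* at 12.6 and *MIR503HG* at 12.4 *CPM* per kb, below the first 4 snoRNA hosts.

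The promoters of the snoRNA hosts are shown because many begin with a pyrimidine run, the start typical of the mRNAs of the translation machinery. The windows run from 20 bases before to 30 bases from the start given by RefSeq on GRCh38.p14, with the run (a C followed by at least 4 C or T, starting within 5 bases of the start) in capitals. *SNHG17* and *DANCR* were called higher in every fit discussed above, *SNHG5* and *SNHG16* were called higher only without the covariate, *ZFAS1* was not called and *SNHG31* was called lower.
SNHG17: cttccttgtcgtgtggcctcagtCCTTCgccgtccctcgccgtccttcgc
DANCR: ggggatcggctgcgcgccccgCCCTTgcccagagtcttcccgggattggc
SNHG5: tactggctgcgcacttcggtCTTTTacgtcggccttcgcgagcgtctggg
SNHG16: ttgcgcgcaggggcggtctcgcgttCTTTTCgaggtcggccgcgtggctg
ZFAS1: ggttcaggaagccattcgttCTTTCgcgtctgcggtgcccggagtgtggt
SNHG31: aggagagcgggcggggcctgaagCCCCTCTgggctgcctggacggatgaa
These windows lie at chr20:38435299-38435348 (minus strand), chr4:52712374-52712423, chr6:85678704-85678753 (minus), chr17:76557744-76557793, chr20:49278622-49278671 and chr2:214810209-214810258. RefSeq promoters were matched for 28 of the 32 snoRNA hosts, without *SNHG6*, *SNHG9*, *SNHG15* and *SNHG25*. Such a run was found in 13 of the 28 (46.4%), in 35.0% of 80 microRNA host promoters and in 21.1% of 35116 promoters. Every window shown carries the run, while *GAS5*, *SNHG3*, *SNHG29* and *SNHG1* were among the hosts without it at the RefSeq start. Among the 24 tested snoRNA hosts with a promoter, which leave out *SNHG9* (1.52) and *SNHG15* (1.24), 11 with the run had 5 calls higher and 1 lower with a median log2 fold change of 0.56, and 13 without it had 4 calls higher with a median of 0.47. The split rests on 1 RefSeq start for each host, and that of *GAS5* lies outside its GENCODE span. It therefore cannot show whether the run matters.

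The sequence that ERRγ binds as a monomer or dimer is an extended half-site, and its core AAGGTCA was searched on both strands from 250 bases before to 50 bases after each start. It was found in 1 of 28 snoRNA host promoters (3.57%), in 2 of 80 microRNA host promoters (2.50%) and in 3.92% of all promoters. The snoRNA host was *GAS5*, where the match stands on the opposite strand and is shown in capitals with 20 bases on either side, at chr1:173869098-173869144.
GAS5: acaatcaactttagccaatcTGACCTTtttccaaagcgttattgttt
The longer TCAAGGTCA, which contains the core, was found in 0 of the host promoters and in 0.353% of all promoters. Absence of these letters says nothing on binding elsewhere, and no binding was measured in these libraries.

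Among the microRNA hosts, *MIR137HG* and *MIR100HG* fell. *MIR137HG*, host of miR-137, which is known for roles in neuronal maturation, lies at chr1:97933474-98049871 on the minus strand. It had 69.9, 75.5 and 65.2 *CPM* with Ad CMV GFP and 37.8, 23.8 and 24.1 *CPM* with Ad CMV 3xFlag-*Esrrg*. All 3 libraries were below all controls, with replicate 2 the least so. The log2 fold change was -1.30 ± 0.17 (adjusted p = 1.9e-04), and the gene was called lower under each of the 18 alternative settings, at -0.70 ± 0.12 with the covariate.

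*MIR100HG*, the most abundant microRNA host and the source of miR-100, let-7a-2 and miR-125b-1, lies at chr11:122028325-122556721 on the minus strand. It had 214, 203 and 206 *CPM* with Ad CMV GFP and 150, 118 and 109 *CPM* with Ad CMV 3xFlag-*Esrrg*, without overlap. Its log2 fold change was -0.72 ± 0.12 (adjusted p = 8.8e-04), and -0.33 ± 0.11 with the covariate, where it was no longer called. *MIR99AHG*, which holds the related cluster of miR-99a, let-7c and miR-125b-2 at chr21:15928296-16646364, had 97.9, 106 and 101 *CPM* with Ad CMV GFP and 103, 74.2 and 65.4 *CPM* with Ad CMV 3xFlag-*Esrrg*. Its replicate 2 lay among the controls, and its log2 fold change was -0.33 ± 0.15 (adjusted p = 0.086). The sign of the *MIR99AHG* value turned with the covariate (0.19) and with a correction for GC content and length (0.24).

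The let-7 seed GAGGUAG occurs in 7 tested hosts, and these did not move as one. *MIR100HG* fell and *MIR4458HG* was called higher, while *MIR99AHG*, *MIRLET7BHG*, *MIRLET7A1HG*, *MIRLET7IHG* and *MIR4500HG* were not called. *MIRLET7BHG*, at chr22:46053869-46113928, had 84.1, 78.8 and 83.9 *CPM* with Ad CMV GFP and 79.8, 73.4 and 86.7 *CPM* with Ad CMV 3xFlag-*Esrrg*, and its log2 fold change was -0.04 ± 0.10. *MIRLET7IHG* stood at -0.52 ± 0.15 (adjusted p = 0.016), *MIRLET7A1HG* at -0.03 ± 0.12 and *MIR4500HG* at 0.31 ± 0.20. *MIR4458HG*, at chr5:8450701-8486930, had 7.06, 6.18 and 6.28 *CPM* with Ad CMV GFP and 7, 11.4 and 11.9 *CPM* with Ad CMV 3xFlag-*Esrrg*. Its replicate 2 lay below the highest control. The log2 fold change of 0.64 ± 0.19 (adjusted p = 0.018) rested on replicates 3 and 4, it was -0.11 with the covariate, and the call was lost without any 1 of the libraries Ad CMV GFP 3 and 4 (0.60 and 0.62) and Ad CMV 3xFlag-*Esrrg* 3 and 4 (0.55 and 0.51).

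Both pairs of hosts that share the miR-181 or the miR-9 seed had 1 member called lower. *MIR181A2HG*, at chr9:124658412-124698635, had 6.92, 9.47 and 8.55 *CPM* with Ad CMV GFP and 5.12, 4.87 and 4.75 *CPM* with Ad CMV 3xFlag-*Esrrg*. It was lower by a log2 fold change of -0.76 ± 0.15 (adjusted p = 0.0020), and -0.70 ± 0.23 with the covariate, where the call was kept. *MIR181A1HG*, which encodes the same mature miR-181a-5p and miR-181b-5p on another chromosome, stood at 0.21 ± 0.25, with replicate 2 at 14.8 *CPM* and the other two at 8.88 and 6.34 *CPM*. *MIR9-3HG*, at chr15:89361579-89424983, had 5.25, 5.37 and 4.17 *CPM* with Ad CMV GFP and 3.33, 2.73 and 2.67 *CPM* with Ad CMV 3xFlag-*Esrrg* (log2 fold change -0.76 ± 0.18, adjusted p = 0.0051, with the call lost under the covariate at -0.47). *MIR9-1HG*, with the same miR-9-5p, stood at -0.45 ± 0.14 (adjusted p = 0.024), under the 1.5-fold limit. The difference between the members of each pair was not tested.

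*MIR503HG* and *MIR4280HG* rose. *MIR503HG*, at chrX:134543119-134546642 on the minus strand beside the miR-424 and miR-503 cluster of cell-cycle inhibitors, had 29.3, 29.7 and 29.7 *CPM* with Ad CMV GFP and 55.5, 38.8 and 39.5 *CPM* with Ad CMV 3xFlag-*Esrrg*. Here replicate 2 was the highest library, and the controls were nearly equal. The log2 fold change was 0.59 ± 0.14 (adjusted p = 0.0049), 1.06 with the covariate, and below the 1.5-fold limit without replicate 2 (0.51) or without Ad CMV GFP replicate 1 (0.58). *MIR4280HG*, at chr5:87048858-87138397, had 2.98, 2.81 and 2.63 *CPM* with Ad CMV GFP and 5.61, 4.52 and 4.84 *CPM* with Ad CMV 3xFlag-*Esrrg*. It was higher by 0.83 ± 0.16 on the log2 scale (adjusted p = 0.0021) and was called with the covariate too. The other hosts called higher were *MIR365BHG* (0.71 ± 0.27) and *MIR378D2HG* (1.09 ± 0.28), at means of 36.0 and 23.5 counts. *MIR365BHG* lost its call when control replicate 3 (0.61) or 4 (0.56) was left out, and likewise for replicate 3 or 4 with the receptor (0.69 each).

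Of the remaining abundant microRNA hosts, none was called. *MIR34AHG*, host of the p53 target miR-34a at chr1:9148011-9198906, had 43.8, 44.5 and 40.5 *CPM* with Ad CMV GFP and 62.7, 58.1 and 56.0 *CPM* with Ad CMV 3xFlag-*Esrrg*. The groups did not overlap, and the log2 fold change of 0.46 ± 0.09 (adjusted p = 0.0023) was under the 1.5-fold limit. *MIR4435-2HG*, at chr2:111006015-111523376, had 77.8, 67.5 and 72.4 *CPM* with Ad CMV GFP and 105, 80.4 and 74.7 *CPM* with Ad CMV 3xFlag-*Esrrg* (0.26 ± 0.13, adjusted p = 0.13). *MIR222HG*, host of miR-221 and miR-222 at chrX:45745210-45770274, had 39.9, 40.5 and 42.7 *CPM* with Ad CMV GFP and 49.1, 39.7 and 34.9 *CPM* with Ad CMV 3xFlag-*Esrrg*. Its groups overlapped, and the log2 fold change was 0.01 ± 0.12.

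The largest fitted changes among the microRNA hosts came from very few reads. *MIR493HG*, in the imprinted cluster of chromosome 14, had 37 reads in the 3 Ad CMV GFP libraries together and 3 in the Ad CMV 3xFlag-*Esrrg* libraries, a normalized ratio of 12.6 with a 95% counting interval from 4 to 64.0. *MIR3142HG*, which holds miR-146a, had 46 and 5 reads, a ratio of 9.42 with an interval from 3.76 to 30.4. Both were called lower, and these intervals cover counting error only. Both passed the filter only through their counts with Ad CMV GFP, so a call in the other direction was hardly possible and these calls add no support. *MIR302CHG* (-1.22 ± 0.39) and *MIR2052HG* (-1.47 ± 0.49, with overlapping groups) were the other lower calls, at means of 11.0 and 12.0 counts. *MIR302CHG* also passed the filter only through its counts with Ad CMV GFP, so its call adds no support either. *MIR302CHG* was not called without any 1 of the Ad CMV GFP libraries (-1.23 to -1.19) or without Ad CMV 3xFlag-*Esrrg* replicate 4 (-0.89). *MIR2052HG* lost its call when control replicate 3 (-1.52) or 4 (-1.03) was left out, and likewise for replicate 3 (-1.37) or 4 (-1.16) with the receptor. With the covariate none of these 4 hosts was called. *MIR646HG*, chosen after its values were seen, was too low for the filter, with 1, 1 and 1 counts with Ad CMV GFP and 13, 13 and 15 counts with Ad CMV 3xFlag-*Esrrg*, and it was called higher in the 5 alternative fits that admitted it. A filter on counts could admit it only through the libraries where it was high, so these calls add no support. In all, 7 of the 45 tested microRNA hosts had every library with the receptor above every control and 16 had every library below, against 27.8% and 30.3% of all tested genes.

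**Figure D4:**
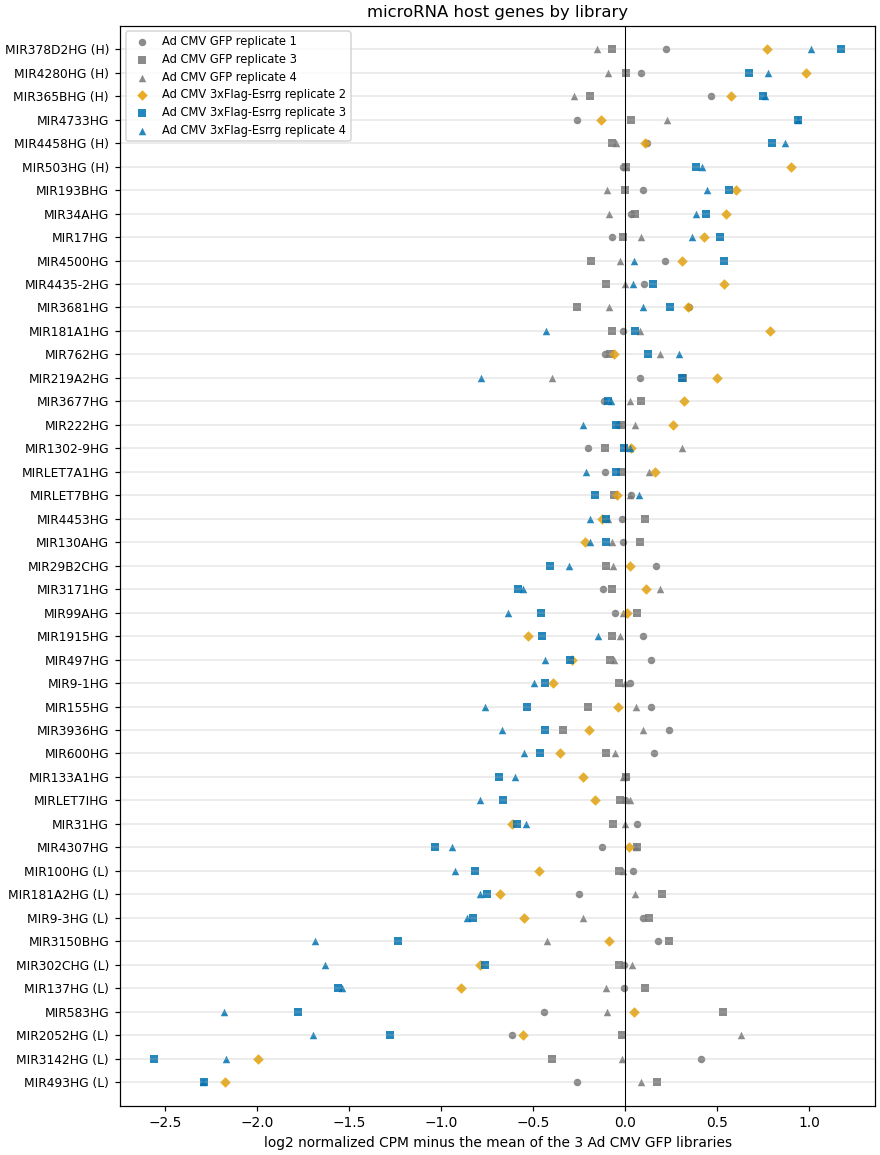
log2 normalized *CPM* of the 45 tested microRNA hosts in each library (x axis, relative to the mean of the Ad CMV GFP libraries), with rows ordered by fold change, H and L marking hosts called higher and lower, grey for Ad CMV GFP, orange for Ad CMV 3xFlag-*Esrrg* replicate 2 and blue for replicates 3 and 4. A prior count of 2 draws the lowest hosts toward 0, and *MIR137HG* is the abundant host furthest to the left.

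The small RNA genes inside the hosts were counted as genes of their own. Of 160 snoRNA and scaRNA genes annotated inside hosts, 32 had any count and 12 could be tested, and of 134 microRNA genes 41 had any count and 12 could be tested. Among the 12 snoRNAs, 7 were called higher and 1 lower, and 4 of the 12 microRNA genes were called lower and the other 8 were not called, where 17.3% of all tested genes were called higher and 16.8% lower. In such libraries these reads can come from precursors, introns and fragments. *SNORA73B*, inside *SNHG3*, had 85.2, 64.2 and 63.4 *CPM* with Ad CMV GFP and 85.5, 276 and 207 *CPM* with Ad CMV 3xFlag-*Esrrg*, and its log2 fold change of 1.42 ± 0.33 (adjusted p = 0.0048) rested on replicates 3 and 4. *SNORD12C*, inside *ZFAS1*, had 0.532, 0.711 and 0.967 *CPM* with Ad CMV GFP and 1.95, 1.63 and 1.73 *CPM* with Ad CMV 3xFlag-*Esrrg*, at 1.24 ± 0.26 where its host stood at 0.24. *SNORA74A* and *SNORA74D* inside *SNHG4* were higher by 1.34 ± 0.37 and 1.41 ± 0.24, and *SNORA13* in *EPB41L4A-AS1* by 1.29 ± 0.34. *SNORA71B* in *SNHG17* and *SNORD104* in *SNHG25* completed the higher calls.

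The 4 microRNA genes called lower lie in 3 hosts, of which *MIR181A2HG* and *MIR100HG* were called lower and *MIR31HG* was not called. *MIR181B2* and *MIR181A2*, inside *MIR181A2HG*, were called lower at -1.81 ± 0.30 and -1.08 ± 0.30, and *MIRLET7A2* inside *MIR100HG* at -0.65 ± 0.22. *MIR31*, inside *MIR31HG*, had 0.922, 0.873 and 1.18 *CPM* with Ad CMV GFP and 0.337, 0.297 and 0.352 *CPM* with Ad CMV 3xFlag-*Esrrg*. The groups were well apart, at -1.59 ± 0.30 (adjusted p = 0.0016), while *MIR31HG* itself stood at -0.58 ± 0.09, just under the 1.5-fold limit. *MIR31* passed the filter only through its counts with Ad CMV GFP, so its call adds no support. *MIR31HG* also holds *SNORD39*, the snoRNA called lower (-0.73 ± 0.27). *SNORA13*, *MIR221* and *MIRLET7C* touch a host exon, where reads that fit both genes count for neither, and the other 21 lie in introns. The difference between host and inner gene was not tested.

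**Figure D5:**
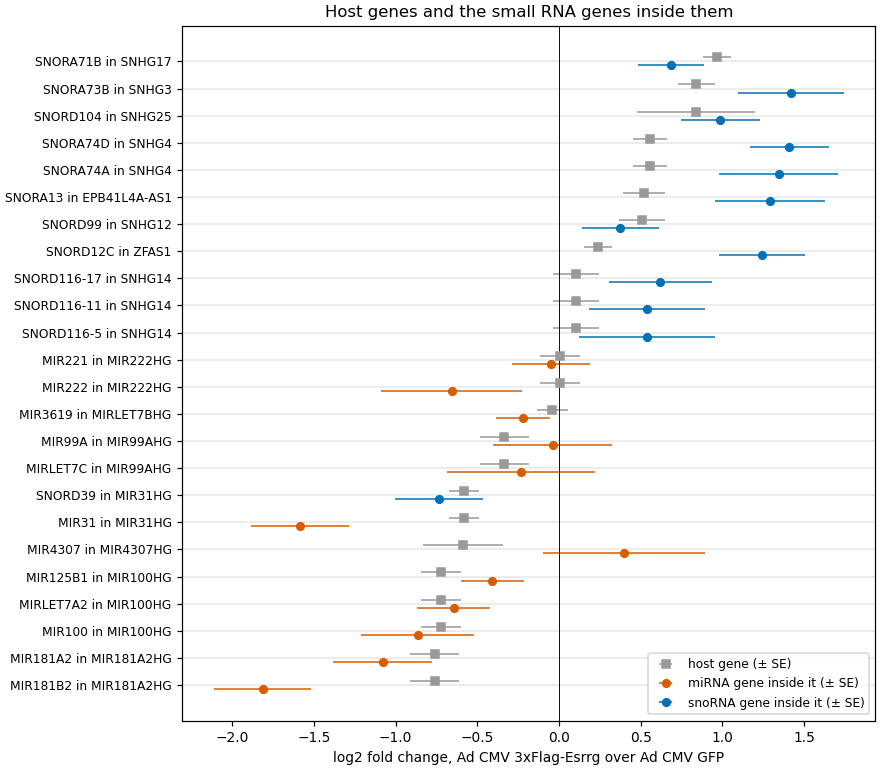
log2 fold changes (x axis) of the 24 testable small RNA genes inside hosts (orange for microRNA genes, blue for snoRNA genes) with the fold change of each host (grey squares), bars giving the standard error. The snoRNA genes lie to the right of 0 except *SNORD39*, and most microRNA genes to the left.

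Some hosts share exon bases with a neighbour on the other strand, and since the strand setting of the counting is not given in the sources used here, reads of the pair cannot be told apart with certainty. *SNHG6* shares 58.9% of its exon bases with *MCMDC2*, which was called lower (-0.65) while *SNHG6* stood at 0.50 ± 0.17. *SNHG7* shares 30.3% with *DIPK1B*, which was called higher (1.09), *SNHG8* 37.6% with *PRSS12* and *EPB41L4A-AS1* 51.2% with *EPB41L4A*. *MIR493HG* shares 31.1% with *RTL1* (-3.16) on the other strand. It also shares 56.6% with genes on its own strand, among them *MEG8* (-2.42), where reads that fit more than 1 gene count for none. *RTL1* and *MEG8* lie in the same cluster and were both called lower.

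The proteins that bind and use the small RNAs were looked at as fixed lists. Of the 8 core proteins of the snoRNA particles, 7 were testable and 6 were called higher, where 25.9% of protein-coding genes and 17.3% of all tested genes were. Their median log2 fold change was 1.19, against 0.12 for protein-coding genes. *NOP56*, the scaffold of the box C/D particle, went from 58.7 ± 7.23 to 134 ± 22.2 *CPM* (SD, n = 3 each), and *DKC1*, the pseudouridine synthase of the box H/ACA particle, from 40.8 ± 2.39 to 72.2 ± 11.9 *CPM*. *SNU13* (1.31), *NHP2* (1.19), *NOP10* (1.53) and *GAR1* (1.00) were the others, and *NOP58* stood at 0.15 ± 0.10. Of 9 testable assembly factors, 3 (33.3%) were called higher, near the 25.9% of protein-coding genes: the ATPases *RUVBL1* (1.06) and *RUVBL2* (1.61) and their partner *PIH1D1* (1.08). Protein-coding genes with snoRNAs in their span, the other large class of hosts, had 78 of 233 called higher (33.5%) and 18 lower (7.73%), against 25.9% and 12.4% of protein-coding genes, with a median of 0.28, against 0.12 for protein-coding genes and 0.56 for the noncoding snoRNA hosts.

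Factors of nonsense-mediated decay moved both ways. *UPF1*, its central helicase, was higher at 0.78 ± 0.10, with *SMG5* (0.81), *SMG8* (0.89) and *SMG9* (0.65), and the kinase *SMG1* fell at -0.61 ± 0.13, so that 4 of 10 were higher and 1 lower, against 25.9% and 12.4% of protein-coding genes and 17.3% and 16.8% of all tested genes. Of 7 regulators of mRNAs with a pyrimidine start, 3 were called higher, the binding protein *LARP1* (0.87), the translation repressor *EIF4EBP1* (1.68) and *RPTOR* (0.79), a subunit of the mTORC1 kinase, against the same 25.9% of protein-coding genes. Of 13 genes of microRNA processing and action, 2 (15.4%) were higher and 1 (7.69%) lower, shares that do not exceed those of all tested genes (17.3% and 16.8%). *XPO5*, the export receptor of precursor microRNAs, was higher at 0.75 ± 0.10 and *TARBP2*, the partner of *DICER1*, at 1.01 ± 0.14, while *DICER1* itself had 113 ± 9.22 *CPM* with Ad CMV GFP and 58.0 ± 9.29 *CPM* with Ad CMV 3xFlag-*Esrrg* (SD, n = 3 each), a log2 fold change of -0.96 ± 0.12 (adjusted p = 1.9e-04). *DROSHA* (-0.13 ± 0.09) and *DGCR8* (0.19 ± 0.09) were not called.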

How the data were processed

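The authors deposited raw read counts per gene as whole numbers. The submitters' processing notes name CASAVA, Trim Galore 0.6.7, *STAR* 2.7.9a, HTSeq 0.11.3, GRCh38 and DESeq2. The annotation release and the strand setting are not given in the sources used here. Identifiers were matched without version to GENCODE release 44 (60463 genes, 90.2%), and 44 duplicate rows of the pseudoautosomal region and 5 summary entries were left out of the tests. Groups came from the sample labels.

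Counts were fitted in R 4.3.3 with edgeR 4.0.16 (filterByExpr, TMM factors, quasi-likelihood test, all 6 libraries). Adjusted p-values are Benjamini-Hochberg values over all 24500 tested genes. A standard error (SE) is the size of the log2 fold change divided by the square root of its F statistic. *CPM* uses TMM factors. An exact permutation test of 3 against 3 libraries cannot go below 0.1 and was not used. The fit was tested on simulated data. Alternatives were DESeq2 1.42.0, other size factors, filters and cutoffs, genes that are not protein-coding, each library left out, the replicate number as a block, a GC and length correction (mgcv 1.9.3) and the share of reads on no feature as a covariate. Per-library values are given for *GAS5*, *DANCR*, *EPB41L4A-AS1* and *ZFAS1*, for the 8 hosts of each class with the highest mean *CPM* and for up to 5 called hosts of each class and direction with a mean of at least 50 counts. The members and lists were chosen with earlier results of these data known. Small RNA genes and list genes named with values were named because they were called or for contrast. Some genes of the marker lists and neighbours of hosts are not reported here. Sequences came from RefSeq (GRCh38.p14).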

Additional observations from a re-analysis of the deposited data

How the results depend on the processing

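Against 11 snoRNA hosts called higher, DESeq2 called 18, RLE size factors 17, library size alone 4, no fold limit 21, a 2-fold limit 3, the replicate block 17, the block plus the correction for GC content and length 17 and the covariate 6. Of all tested genes, 19.3%, 19.6%, 8.98%, 24.3%, 7.97%, 19.4%, 17.4% and 7.24% were called higher under these settings, in this order. Leaving out 1 library gave 8 to 20, with 20 without Ad CMV 3xFlag-*Esrrg* replicate 2. Against 1 called lower, library size alone and the GC and length correction gave 2 each and the covariate 0, and leaving out 1 library gave 1 each time. The median of 0.56 became 0.23 with library size alone, 0.83 with the block plus the correction and 0.17 with the covariate, and 0.49 to 0.76 without 1 library. Against 5 microRNA hosts called higher, library size alone gave 1, no filter 9 (10.9% of all genes), no fold limit 8, a 2-fold limit 1 and the block with the correction 8, and leaving out 1 library 4 to 6. Against 8 called lower, library size alone gave 18, no fold limit 14, a 2-fold limit 5, the block 14 and the covariate 4, where 30.9%, 23.5%, 8.09%, 23.2% and 5.4% of all tested genes were called lower, and leaving out 1 library 6 to 12. Their median of -0.22 became -0.53 with library size alone and turned to 0.020 with the covariate, and was -0.16 to -0.21 without 1 library. The cause of these shifts was not tested.

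Of 450 values of 25 named hosts, 364 kept direction and side of the threshold, 48 lost the call, 19 gained it and 19 turned sign. Library size alone turned *SNHG14* (-0.19), *ZFAS1* (-0.083), *MIR4435-2HG* (-0.042) and *MIR222HG* (-0.30). The block turned *SNHG14* (-0.066) and *MIR222HG* (-0.16). The covariate turned *SNHG5* (-0.086), *SNHG8* (-0.20), *MIR99AHG* (0.19) and *MIR4458HG* (-0.11). The GC and length correction turned *MIR99AHG* (0.24, and 0.16 with the block). DESeq2 and RLE size factors turned *MIRLET7BHG* (0.038 each). Leaving out 1 library placed *MIRLET7BHG* between -0.094 and 0.071 and *MIR222HG* between -0.028 and 0.12. The groups share only the replicate numbers 3 and 4, and deviations of same-numbered libraries correlated at 0.08 and -0.00010, so the block, which leaves 1 residual degree of freedom, joins libraries that share only a number. Depth limits the 43 hosts that were not tested, and a 0 in this table gives no limit for a gene, with or without copies on alternate contigs. *FBL*, listed at 0, has only 9.2% of its words on those contigs.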
